A study of Mus musculus with 2 samples.

Results

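The genes Wnt2, Wnt4, Wnt5a, Dkk2, Dkk3, Notum, Sfrp1, Sfrp2, Sfrp4 and Axin2 were followed across the cell classes of an aged mouse bladder. They were found by symbol among 31054 features, where each symbol named 1 row, and all 10 had UMIs in both libraries. Of the 10, 3 encode Wnt ligands, 6 encode secreted proteins that act on Wnt signalling from outside the cell, and Axin2 encodes an intracellular feedback inhibitor, neither ligand nor secreted. The genes were chosen with their levels in these libraries known, so the levels below describe them and test nothing. The Tom+ library held CD45-/DAPI-/Tomato+ cells and the Tom- library CD45-/DAPI-/Tomato- cells, sorted from the bladder of the same p16-CreERT2/R26-LSL-tdTomato male aged 25 months. That mouse had 5 days of tamoxifen by intraperitoneal injection and was killed 2 weeks later, so Tom- cells carried the same alleles and drug. The p16 promoter drives the inducible Cre, and a cell that was p16-active under tamoxifen keeps the fluorescent mark afterwards. Each group was 1 library from 1 animal, and differences between them could be neither replicated nor tested. Every 95% interval covers counting error only.

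Wnt proteins are lipid-modified signals that travel short distances and bind Frizzled receptors. In the canonical branch, binding with the co-receptors Lrp5 and Lrp6 stabilises beta-catenin, which turns on targets such as Axin2 through TCF and LEF factors, whereas Wnt5a is best known for beta-catenin-independent signalling. Sfrp proteins bind Wnts directly, Dkk2 binds Lrp5 and Lrp6, and the enzyme Notum removes the lipid that Wnts need, while the action of Dkk3 on the pathway is less settled. In the bladder, stromal cells beneath the urothelium are a known source of Wnt signals.

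In a GRCm38 gene annotation, Dkk2 (ENSMUSG00000028031) lies on chromosome 3 at 132085292 to 132180304 on the plus strand, and its longest transcript has 4 exons. Axin2 (ENSMUSG00000000142) lies on chromosome 11 at 108920349 to 108950783, also on the plus strand, with 11 exons. Wnt2 lies on chromosome 6 at 17988940 to 18030585 on the minus strand, and Wnt4 on chromosome 4 at 137277489 to 137299726 on the plus strand. Notum (120653788 to 120661175) also lies on chromosome 11, on the minus strand, and Sfrp2 (83766321 to 83774316) on chromosome 3, on the plus strand. No member overlapped another gene on its own strand. On the opposite strand Sfrp2 overlaps Gm26771, Wnt5a overlaps Gm2670, Notum overlaps Notumos and Myadml2os, and Axin2 overlaps Gm11670. Whether counting used strand is not given in the sources used here, so reads of these pairs may not be told apart. Upstream sequences were held for 5 members (Sfrp2, Dkk2, Wnt4, Wnt2 and Axin2). Those of Dkk2, whose UMIs lay mostly in a pair of stromal groups described below, and of Axin2, the pathway's own target, are shown as the 250 bases before the RefSeq start (GRCm38.p6), at chr3:132085042-132085291 and chr11:108920099-108920348 on the plus strand. Capitals mark the letters TATAAA.
Dkk2: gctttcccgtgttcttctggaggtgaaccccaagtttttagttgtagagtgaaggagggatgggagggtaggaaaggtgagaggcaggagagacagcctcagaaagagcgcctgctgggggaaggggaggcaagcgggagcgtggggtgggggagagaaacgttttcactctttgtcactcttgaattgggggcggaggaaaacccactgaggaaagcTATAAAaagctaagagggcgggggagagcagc
Axin2: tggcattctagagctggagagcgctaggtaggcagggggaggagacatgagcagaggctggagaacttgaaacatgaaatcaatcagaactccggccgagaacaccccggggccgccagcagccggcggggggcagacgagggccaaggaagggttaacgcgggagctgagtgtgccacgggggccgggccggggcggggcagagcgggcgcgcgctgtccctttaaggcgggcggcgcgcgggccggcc
TATAAA, searched on both strands, stood 32 bases before the Dkk2 start and in none of the other 4 windows. It occurred in 12.4% of 32851 such windows. The TCF and LEF letters ATCAAAG, present in 3.21% of the windows, were in none of the 5.

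The Tom+ library held 2783 barcodes and 34455896 UMIs, against 13551 barcodes and 197232860 UMIs in Tom-. After filters and removal of called doublets, 1881 Tom+ and 9886 Tom- cells were used, at medians of 11579 and 12773 UMIs. The libraries shared 966 barcodes, among them those of 346 used Tom+ and 657 used Tom- cells. tdTomato was 1237 CPM in used Tom+ cells and 35.4 CPM in Tom- cells. Transcripts of Cdkn2a, the p16 gene, were 3.61 CPM in used Tom+ cells and 4.18 CPM in Tom- cells, so Tom- cells did not lack them. Cells were clustered without the 10 genes, 80 other listed Wnt genes, tdTomato and Cdkn2a, and were named from marker lists. Levels are in CPM, the UMIs of a gene scaled by the summed UMIs of a group of cells. Since each 3' tag counts 1 transcript, levels are not scaled by length and are compared within a gene only. The class called fibroblast-like had 581 Tom+ and 3910 Tom- cells, of which 15 and 6 carried a shared barcode.

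Clusters near the fibroblast-like class were kept apart and are called by leading genes. The Car3 Tnc stromal cluster (23 Tom+ and 497 Tom- cells) detected all 7 fibroblast markers but scored higher for smooth muscle markers, at a mean log2 fold over the other clusters of 2.06 against 0.89. The Gdf10 Myoc stromal cluster (127 and 588 cells) scored best for fibroblast markers and detected all 7. The pericyte marker Abcc9 was among its leading genes, and 32 Tom+ and 89 Tom- cells in it carried a shared barcode. The Sema3e Vegfd stromal cluster had 21 Tom+ and 193 Tom- cells, 8 of each with a shared barcode. Cdkn2a was 40.8 CPM, from 12 UMIs, in Tom+ against 53.4 in Tom- Car3 Tnc cells, and 21.5 against 4.79 CPM in Gdf10 Myoc cells.

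Of the ligands, Wnt2 was a stromal transcript in both libraries. It was 365 CPM (349 to 382) in Tom+ against 573 (566 to 580) in Tom- fibroblast-like cells, and 476 (401 to 562) and 458 (443 to 473) CPM in Tom+ and Tom- Car3 Tnc stromal cells. Mesothelial-like cells, which cover the outer surface of the bladder, had 54.0 CPM in Tom+ against 52.9 in Tom-, Sema3e Vegfd stromal cells 55.3 and 35.2 CPM, and Gdf10 Myoc stromal cells 37.8 and 38.7 CPM. In each library the intervals of the last 2 clusters overlapped. The 67 erythroid-like cells, all Tom-, held 114 CPM of Wnt2 and 46.7 CPM of Dkk2, and the source of those UMIs was not tested. In the umbrella urothelial-like class, which lines the lumen, there were 0.391 CPM in Tom+ against 2.66 in Tom-. After each cell was thinned to 2000 UMIs, Wnt2 was detected in 44.7% (Tom+) and 60.5% (Tom-) of the fibroblast-like class, and in 0% and 0.511% of the umbrella class. Without thinning they were 66.4% and 88.0%, at median depths of 7930 and 11282 UMIs, and 1.22% and 9.01% in umbrella urothelial-like cells at 38240.5 and 38724 UMIs.

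Wnt4 and Wnt5a had the other pattern, with high levels in epithelia. Of the named classes and clusters, mesothelial-like cells had the highest Wnt4, at 566 CPM (544 to 588) in Tom+ against 528 (518 to 538) in Tom-. Car3 Tnc stromal cells came next at 388 CPM in Tom+ against 335 in Tom-. In basal or intermediate urothelial-like cells Wnt4 was 221 CPM (206 to 236) in Tom+ against 222 (215 to 230) in Tom-, and in umbrella urothelial-like cells 147 CPM in Tom+ against 148 in Tom-. Fibroblast-like cells held 38.8 CPM of Wnt4 in Tom+ and 98.9 CPM in Tom-.

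Of the named classes, Wnt5a was highest in basal or intermediate urothelial-like cells, at 277 CPM (260 to 294) in Tom+ against 289 (281 to 297) in Tom-. Umbrella urothelial-like cells had 242 CPM (234 to 250) in Tom+ against 243 (239 to 247) in Tom-. Gdf10 Myoc stromal cells had 182 CPM in Tom+ against 110.3 in Tom-, Sema3e Vegfd stromal cells 153 and 136 CPM, and mesothelial-like cells 146 and 137 CPM. Fibroblast-like cells held 40.0 CPM (34.7 to 45.8) in Tom+ against 40.9 (39.0 to 42.8) in Tom-. The Tom+ to Tom- ratio for Wnt4 in mesothelial-like cells was 1.07 (1.03 to 1.12) and that for Wnt5a 1.07 (0.98 to 1.16). Of 7 members measured in mesothelial-like cells (at least 10 CPM in 1 library and 20 UMIs over both), none was 1.5 times higher or lower, where 2.14% and 1.11% of all 8953 measured genes were. In this class 77 of the 227 Tom+ cells carried a shared barcode, as did 18 of the 962 Tom- cells, and without them Wnt4 there was 700 CPM in Tom+ against 529 in Tom-.

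**Figure D1:**
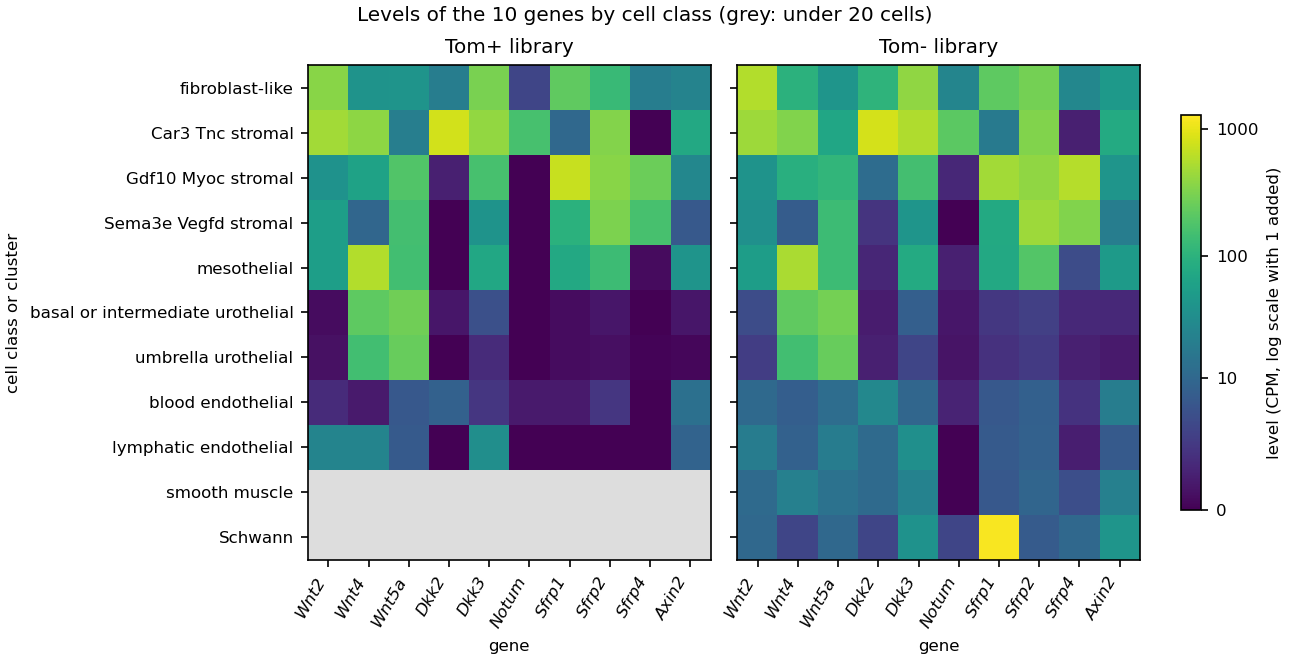
Levels of the 10 genes (columns) in each cell class or stromal cluster (rows), as a colour on a log scale of CPM, for the Tom+ library (left) and the Tom- library (right). Wnt4 and Wnt5a are bright in urothelial and mesothelial-like rows, Dkk2 and Notum in the Car3 Tnc row, where Dkk2 was 786 CPM in Tom+ against 828 in Tom-, and Sfrp4 in the Gdf10 Myoc row.

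Among the secreted antagonists, Dkk2 and Notum had most of their UMIs in few stromal cells. Dkk2, which blocks the co-receptors, was 786 CPM (688 to 894) in Tom+ against 828 (808 to 848) in Tom- Car3 Tnc stromal cells. All 23 Tom+ cells of that cluster held a Dkk2 UMI, as did 96.4% of its Tom- cells. In umbrella urothelial-like cells no Dkk2 UMI was found in Tom+ and 0.863 CPM in Tom-. Car3 Tnc stromal cells together with the Scube3 Gfra1 state of fibroblast-like cells, described below, held 85.7% of all Dkk2 UMIs in Tom+ and 89.2% in Tom-. The same cells held 1.42% of all UMIs in Tom+ and 10.9% in Tom-. Notum, the enzyme that inactivates Wnts, had 80.3% of its UMIs in those cells in Tom+ and 85.2% in Tom-, and its level in Car3 Tnc stromal cells was 159.9 CPM (117 to 213) in Tom+ against 210.1 (200.3 to 220.4) in Tom-. These clusters were made without either gene, although Dkk2 was among the 10 leading genes of the Car3 Tnc cluster. Dkk2 was also among the leading genes of the Scube3 Gfra1 state, of which Car3, at 1777 CPM over both libraries, and Tnc came first. Cells led by Car3 and Tnc thus also lay within the fibroblast-like class.

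Dkk3 was spread over the stroma. It was 308 CPM (293 to 324) in Tom+ against 396 (390 to 402) in Tom- fibroblast-like cells, and 401 and 545 CPM in Tom+ and Tom- Car3 Tnc stromal cells. Gdf10 Myoc stromal cells had 159.8 and 149.5 CPM, mesothelial-like cells 71.9 and 79.3 CPM, and umbrella urothelial-like cells 1.43 and 3.41 CPM.

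The products of the 3 Sfrp genes bind Wnts. Sfrp1 was 702 CPM (655 to 752) in Tom+ against 475 (458 to 492) in Tom- Gdf10 Myoc stromal cells. It was higher still in Schwann-like cells, the glia of peripheral nerve, at 1217 CPM (1093 to 1351) in 48 Tom- cells, a class with no Tom+ cell. Sfrp2 was 312 CPM in Tom+ against 458 in Tom- Sema3e Vegfd stromal cells, 359 and 395 CPM in Gdf10 Myoc cells and 344 and 332 CPM in Car3 Tnc cells, and the 3 Tom+ intervals overlapped. An unnamed cluster led by Rorb and Osr2, most of whose cells carried shared barcodes, had more, at 847 CPM in Tom+ against 665 in Tom-. Mesothelial-like cells held 31.5% of Sfrp2 UMIs in Tom+ and 16.3% in Tom-. By cluster Sfrp2 was 217 CPM in Tom+ against 315 in Tom- in that led by Saa3 and Cxcl5. It was 0 and 5.35 CPM in that led by Myl7 and Prg4, and 44.5 and 168 CPM in that led by Pcnx2 and Rspo1. In the Saa3 cluster 57 of 133 Tom+ cells carried a shared barcode. Sfrp4, a leading gene of the Gdf10 Myoc cluster, was highest there, at 260.4 CPM (232 to 291) in Tom+ against 591 (572 to 610) in Tom-. The Tom+ level was 164 CPM, against 611 CPM in Tom-, without shared barcodes. Sfrp4 in Car3 Tnc stromal cells had no UMI in Tom+, which allows up to 10.2 CPM, and 0.869 CPM in Tom-.

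Axin2, read here as a transcript and not as pathway activity, was in the named classes and clusters highest in Car3 Tnc stromal cells at 74.8 CPM (46.9 to 113) in Tom+ against 79.7 (73.6 to 86.1) in Tom-. Mesothelial-like cells had 40.2 CPM in Tom+ against 48.4 in Tom-. Umbrella urothelial-like cells had 0.130 CPM in Tom+ against 0.661 in Tom-, and basal or intermediate urothelial-like cells 0.535 and 1.27 CPM. The urothelial classes were therefore near zero for Axin2 in both libraries, although Wnt4 and Wnt5a were high in them.

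Over all fibroblast-like cells, 6 members were at least 1.5 times lower in Tom+ than in Tom- and none was as much higher, with 1 CPM added to each level. Of all 8875 genes measured in the class, 2.77% were as much lower and 1.94% as much higher. This contrast is the one the genes were chosen on, so nothing is read from the count. Notum was 3.49 CPM (2.07 to 5.52) from 18 UMIs in Tom+ against 25.5 (24.0 to 27.0) in Tom-, a ratio of 0.137 (0.081 to 0.218). Dkk2 was 19.99 CPM (16.3 to 24.2) in Tom+ against 104 (101 to 107) in Tom-, a ratio of 0.193 (0.157 to 0.234). Next came Wnt4, at a ratio of 0.392 (0.339 to 0.452). Sfrp2, at 127 CPM in Tom+ against 286 in Tom-, had a ratio of 0.443 (0.409 to 0.480). Axin2, at 23.9 CPM in Tom+ against 47.2 in Tom-, had a ratio of 0.506 (0.419 to 0.607).

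The remaining members differed less. The Wnt2 ratio was 0.637 (0.607 to 0.667), just past the 1.5-fold mark, and that of Dkk3 was 0.778 (0.739 to 0.820). Sfrp4, at 19.6 CPM in Tom+ against 26.6 in Tom-, had a ratio of 0.737 (0.595 to 0.904). The ratios of Wnt5a, at 0.978 (0.843 to 1.13), and Sfrp1, at 1.03 (0.965 to 1.09), had intervals that held 1. Counting Gdf10 Myoc, Sema3e Vegfd and Car3 Tnc stromal cells as fibroblast-like left the same 6 members lower and none higher, beside 2.84% and 1.8% of 8965 genes.

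Other measures moved with the libraries in these cells. Median depth was 7930 UMIs in Tom+ and 11282 in Tom-. The 5 erythroid markers summed to 46.4 CPM in Tom+ against 472 in Tom-. The 7 smooth muscle markers summed to 102 and 256 CPM, and no marker of either list was at 0. In Tom-, the Scube3 Gfra1 state described below held 3216 of 3877 UMIs of the smooth muscle marker Acta2 and 4646 of 5271 of Tagln. In Tom+ that state held 48 of 175 and 53 of 133. The 7 mesothelial markers summed to 5.05 CPM in Tom+, with Bnc1 at 0, and to 14.9 CPM in Tom-. The part of these in the member ratios was not tested.

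**Figure D2:**
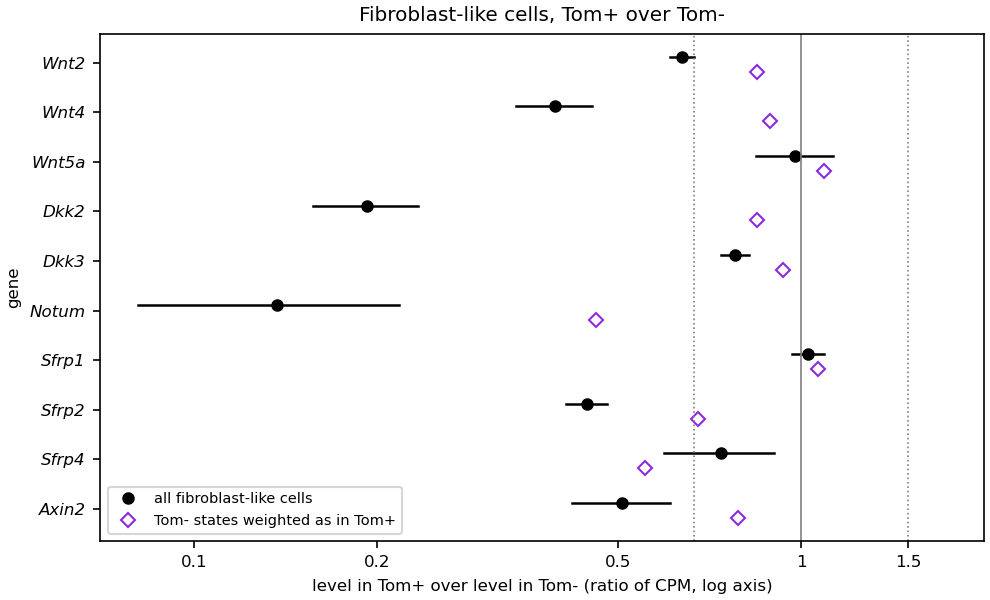
Ratio of the Tom+ level to the Tom- level of each gene in fibroblast-like cells (log axis). Black points are the ratio over the whole class with its 95% interval, open diamonds the ratio after the Tom- states were weighted as in Tom+, and dotted lines mark a 1.5-fold difference. The Dkk2 point at 0.193 stands beside a diamond at 0.846.

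The libraries held the fibroblast states, which are sub-clusters named by leading genes, in different shares. The Kcnn3 Gucy1a1 state held 32.9% (29.1 to 36.9) of the class in Tom+ against 11.2% (10.2 to 12.2) in Tom-. The Cxcl12 Apoe state held 23.1% (19.7 to 26.7) and 13.4% (12.3 to 14.5). The other direction held for Cck Chodl cells, at 7.92% (5.85 to 10.4) in Tom+ against 22.2% (20.9 to 23.6) in Tom-, and for Scube3 Gfra1 cells, at 2.24% (1.197 to 3.796) and 19.4% (18.2 to 20.7). Pex5l Lsamp cells were 12.9% of Tom+ and 15.98% of Tom- cells and Dpp4 Sema3e cells 13.9% and 14.7%, with overlapping intervals. A low-depth state, at medians of 1856 and 2293 UMIs, held 7.06% and 3.07%. Sorting on fluorescence and CD45 can set such shares, and they do not stand for the whole bladder.

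**Figure D3:**
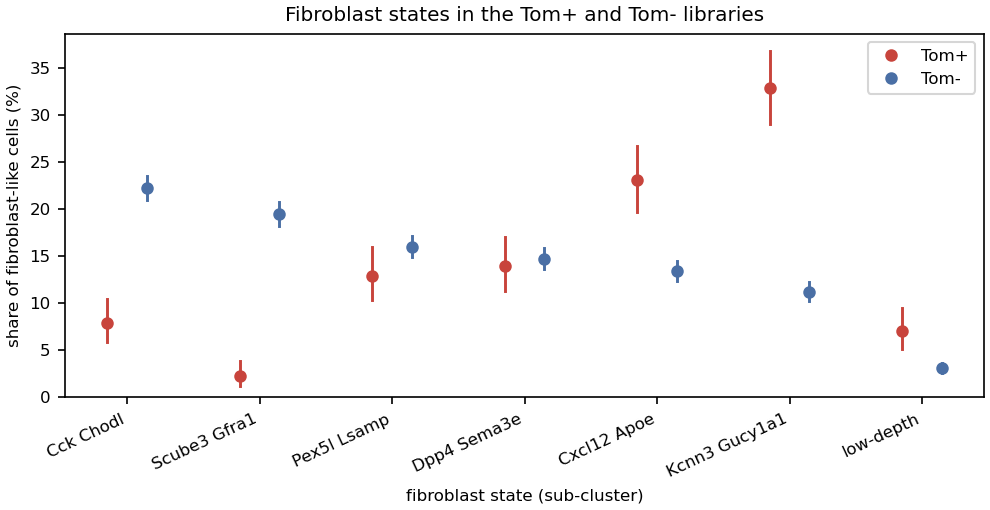
Share of fibroblast-like cells in each of 7 states, in percent, with exact 95% binomial intervals, for Tom+ (red, left of each pair) and Tom- (blue, right). Kcnn3 Gucy1a1 cells were 32.9% of the class in Tom+ and 11.2% in Tom-, and Scube3 Gfra1 cells 2.24% and 19.4%.

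Member levels differed more between states than between libraries for Dkk2 and Wnt2. Dkk2 in Scube3 Gfra1 cells was 429 CPM (338 to 538) in Tom+, from 13 cells, and 387 CPM (375 to 399) in Tom-, a ratio of 1.11 (0.871 to 1.395). In Car3 Tnc stromal cells the ratio was 0.949 (0.829 to 1.08). Cck Chodl cells had 61.0 CPM in Tom+ against 82.2 in Tom-, a ratio of 0.742 (0.490 to 1.08). In the other 5 states no Dkk2 UMI was found in Tom+, where 3 counts stand for 2.04 to 23.3 CPM, against 2.08 to 21.2 CPM in Tom-. Wnt2 was lowest in Kcnn3 Gucy1a1 cells among the states of usual depth, at 137 CPM (118 to 157) in Tom+ against 239 (223 to 255) in Tom-. It was highest in Cck Chodl and Scube3 Gfra1 cells, at 649 and 704 CPM in Tom+, with overlapping intervals, and at 741 and 716 CPM in Tom-.

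Within states, Wnt4 differed in direction. In Cck Chodl cells it was 279 CPM (233 to 332) in Tom+ against 182 (173 to 191) in Tom-, a ratio of 1.54 (1.27 to 1.84). In Pex5l Lsamp cells it was 17.5 CPM in Tom+ against 38.9 in Tom-, a ratio of 0.450 (0.243 to 0.767), and in Cxcl12 Apoe cells 21.8 and 42.5 CPM, a ratio of 0.514 (0.325 to 0.778). Without 1 Tom+ and 1 Tom- cell with a shared barcode, Wnt4 in Cck Chodl cells was 246 CPM in Tom+ against 182 in Tom-, no longer past 1.5-fold.

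Sfrp2 and Sfrp4 were lower in Tom+ within the state that was largest in Tom+. In Kcnn3 Gucy1a1 cells Sfrp2 was 7.47 CPM (3.73 to 13.4) in Tom+ against 57.4 (49.8 to 65.8) in Tom-, a ratio of 0.130 (0.064 to 0.238). Sfrp4 there was 6.79 CPM in Tom+ against 29.8 in Tom-, a ratio of 0.228 (0.106 to 0.436). In Gdf10 Myoc stromal cells the Sfrp4 ratio was 0.441 (0.391 to 0.496). The Sfrp2 ratio in Pex5l Lsamp cells was 0.871 (0.751 to 1.01). Sfrp4 was also below Tom- in Cxcl12 Apoe cells, at 14.8 CPM in Tom+ against 32.6 in Tom-, while Dpp4 Sema3e cells had 68.9 and 84.6 CPM with intervals that overlapped. Without shared-barcode cells, Sfrp4 in Dpp4 Sema3e cells was 54.8 CPM in Tom+ against 84.8 in Tom-, past 1.5-fold lower with 1 CPM added. Wnt5a in Gdf10 Myoc stromal cells was higher in Tom+, at 182 CPM (158 to 208) against 110.3 CPM (102 to 119) in Tom-, a ratio of 1.65 (1.41 to 1.93).

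**Figure D4:**
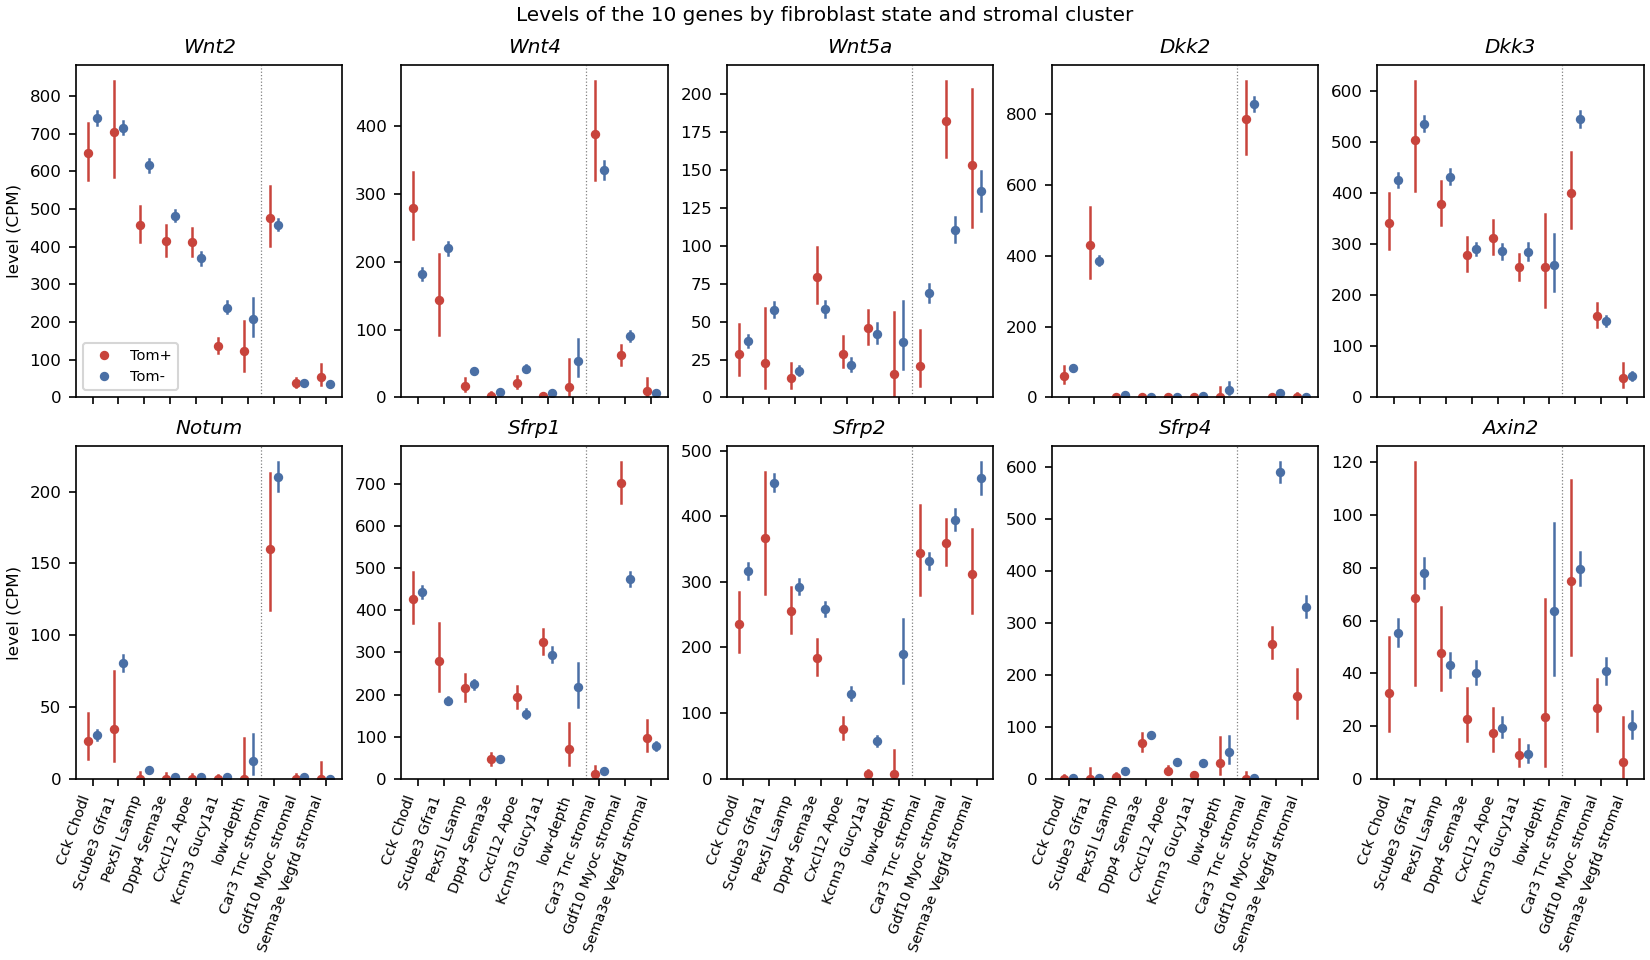
Level of each gene in CPM, from 0, in the 7 fibroblast states and, right of the dotted line, the 3 stromal clusters kept apart. Points are Tom+ (red, left) and Tom- (blue, right) with exact 95% Poisson intervals. Dkk2 is high in Scube3 Gfra1 and Car3 Tnc cells of both libraries, and Sfrp2 in Kcnn3 Gucy1a1 cells is 7.47 CPM in Tom+ against 57.4 in Tom-.

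Counts of measured members past 1.5-fold differed by state. Kcnn3 Gucy1a1 cells had 3 of 6 lower (Wnt2, Sfrp2 and Sfrp4), beside 4.46% of all measured genes lower and 4.79% higher. Cxcl12 Apoe cells had 3 of 8 lower (Wnt4, Sfrp2 and Sfrp4), beside 3.98% lower and 4.67% higher. Pex5l Lsamp cells had 2 of 8 lower (Wnt4 and Sfrp4), beside 6.43% lower and 5.66% higher. Wnt5a there was past 1.5-fold lower too without shared-barcode cells, at 10.6 CPM, from 8 UMIs, in Tom+ against 17.6 in Tom-. Dpp4 Sema3e cells had 1 of 7 lower (Axin2), beside 5.58% lower and 3.78% higher. Sfrp4 there was past 1.5-fold lower too once shared-barcode cells were left out. Cck Chodl cells had 1 of 9 lower (Axin2), beside 10.3%, and 1 higher (Wnt4, not past 1.5-fold without the shared-barcode cells), beside 9.22%. Without them Notum, at 18.4 CPM in Tom+ against 30.3 in Tom-, and Sfrp2, at 207 against 316 CPM, were past 1.5-fold lower. The share over all genes was not computed without such cells. In the low-depth state 6 of 7 were lower, beside 21% of genes. Gdf10 Myoc cells had 3 of 9 lower (Dkk2, Sfrp4 and Axin2), beside 4.81%, and 1 higher (Wnt5a), beside 5.26%. Outside the stroma, Wnt4 and Wnt5a were the 2 members measured in the urothelial classes and neither was past 1.5-fold, beside 0.359% of genes lower and 0.0398% higher in umbrella and 1.27% and 0.164% in basal or intermediate cells. Blood endothelial-like cells had Wnt2, Wnt5a and Dkk2 lower of 4 measured, beside 10% lower and 2.31% higher. These rest on 2, 9 and 12 Tom+ UMIs. Lymphatic endothelial-like cells had Wnt5a lower, beside 11.9%, and Wnt4 higher, beside 8.27%, of 4 measured, from 3 and 11 Tom+ UMIs. Over all used cells 7 of 10 were lower (all but Wnt4, Wnt5a and Sfrp1), beside 4.52% lower and 0.55% higher, a contrast that also holds the different class shares.

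The ratios over the class were set against the Tom- levels that the Tom+ mix of states would give. Dkk2 was 19.99 CPM as observed in Tom+, against 23.6 CPM in Tom- weighted so, and Wnt4 38.8 against 43.7 CPM. Wnt2 was 365 CPM in Tom+ against 432 CPM in weighted Tom-, and Axin2 23.9 against 30.3 CPM. By this measure the observed Tom+ level was 0.846 times the weighted Tom- level for Dkk2, 0.888 for Wnt4, 0.845 for Wnt2 and 0.79 for Axin2. Sfrp2 stood at 0.677, Sfrp4 at 0.553 and Notum at 0.459, while Dkk3, Sfrp1 and Wnt5a lay between 0.93 and 1.09. Thus 2 members, Notum and Sfrp4, were past 1.5-fold with 1 CPM added, beside 0.676% of 8875 genes lower and 0.315% higher. An equal-weight mean of the log2 ratios over the 6 states with 30 cells of each library put 5 members past 1.5-fold lower (Wnt4, Dkk2, Notum, Sfrp2 and Sfrp4), beside 5.86% of genes lower and 0.631% higher. For Dkk2 and Notum that mean rests on 5 states with no Tom+ UMI and leaves out Scube3 Gfra1. In those states Dkk2 was 2.08 to 21.2 CPM and Notum 1.27 to 12.1 CPM in Tom-.

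Single cells of the restricted groups held several members at once. Thinned to 2000 UMIs, Scube3 Gfra1 cells held a median of 4 of the 10 genes in Tom+ and 3 in Tom-, Car3 Tnc stromal cells 3 and 4, and Cck Chodl cells 3 and 3. Kcnn3 Gucy1a1 cells held a median of 1 in each library, and 22.3% of Tom+ and 21.1% of Tom- cells held none. Ligand and antagonist transcripts occurred in the same cells: of 353 Tom- Car3 Tnc stromal cells with a Dkk2 UMI, 52.4% also had Wnt2 and 41.1% Wnt4, against 57.8% and 49.2% of the 128 without Dkk2. Notum went with Wnt4 there, which 56.2% of 146 cells with Notum held, against 37.6% of 335 without. Wnt2 went the other way, at 43.8% of cells with Notum and 58.2% of those without. In Tom- Scube3 Gfra1 cells the shares with Wnt4 were 31.6% with Notum and 31.6% without. These shares describe cells of 1 library and are not replicated.

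The rest of the pathway was read from 7 lists of 80 other genes, chosen by pathway role. In fibroblast-like cells 10 had no UMI, and over all barcodes of both libraries Wnt8a, Sost, Cer1 and Rspo2 had none. Of 46 measured there, 9 were at least 1.5 times lower in Tom+ and 4 higher, beside 2.77% and 1.94% of all 8875 measured genes. The median log2 ratio was -0.09, against -0.01 for all measured genes and -0.80 for the 10 members. The members were chosen on this contrast, so nothing is read from the gap between their median and the others. These counts depended on 1 state: without Scube3 Gfra1 cells, 2 of 42 were lower (Sostdc1 and Nkd1) and 1 higher (Frzb). The share over all genes was not computed without that state. With the Tom- states weighted as in Tom+, Sostdc1, at 0.582, was the only gene of the 9 and 4 still past 1.5-fold. By that measure 0.676% of 8875 genes were lower and 0.315% higher.

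Among 5 other measured ligands, Wnt11 was lower, at 37.3 CPM in Tom+ against 56.9 in Tom-, and Wnt9a higher, at 22.3 and 13.6 CPM. Wnt5b and Wnt10b had ratios of 0.899 (0.725 to 1.10) and 0.984 (0.833 to 1.16). Of 6 genes for ligand processing and release, Wls, the carrier that brings Wnts to the cell surface, was 175 CPM in Tom+ against 184 in Tom-, and Gpc6 had a ratio of 1.23. The heparan sulfate proteoglycan gene Gpc3 was higher, at 166 CPM in Tom+ against 105 in Tom-. Of 10 measured receptors and co-receptors, Fzd4 was higher, at 49.7 and 27.8 CPM, and Fzd3 lower, at 9.71 CPM in Tom+ against 18.0 in Tom-. Fzd1, at 300.9 CPM in Tom+ against 364 in Tom-, Fzd2 and Ryk lay within 1.5-fold.

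Of 3 other measured antagonists and Dkk receptors, Sostdc1, an antagonist of BMP and Wnt signals, was lower at 5.63 CPM in Tom+ against 25.6 in Tom-, a ratio of 0.220 (0.147 to 0.317). Its highest group was Schwann-like cells, at 1414 CPM in Tom-. Frzb, another Wnt-binding antagonist, was higher at 11.1 CPM in Tom+ against 4.98 in Tom-, and the Dkk receptor gene Kremen1 had a ratio of 1.17. Lgr5, an R-spondin receptor, was lower at 21.0 CPM in Tom+ against 38.7 in Tom-, while Lgr4 and Rspo1 were below 10 CPM in both. The R-spondin gene Rspo1 was high in mesothelial-like cells, at 257 CPM in Tom+ against 306 in Tom-. Of 14 transduction genes, the transcription factor genes Tcf7, at 5.43 and 12.9 CPM, and Lef1, at 3.88 and 10.5 CPM, were lower. Ctnnb1, which encodes beta-catenin, Gsk3b and Csnk1a1 had ratios of 0.975, 0.821 and 0.939. Of 6 measured feedback targets, 3 were lower, beside 2.77% of all measured genes. These were Tnfrsf19 at a ratio of 0.403, Nkd1 at 0.578 and Nkd2 at 0.621. Ccnd1 and Cd44, which other pathways also drive, stood at 1.14 each. With the Tom- states weighted as in Tom+, Tnfrsf19 stood at 1.10, Nkd1 at 0.767, Nkd2 at 0.818, Tcf7 at 0.728 and Lef1 at 0.924.

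**Figure D5:**
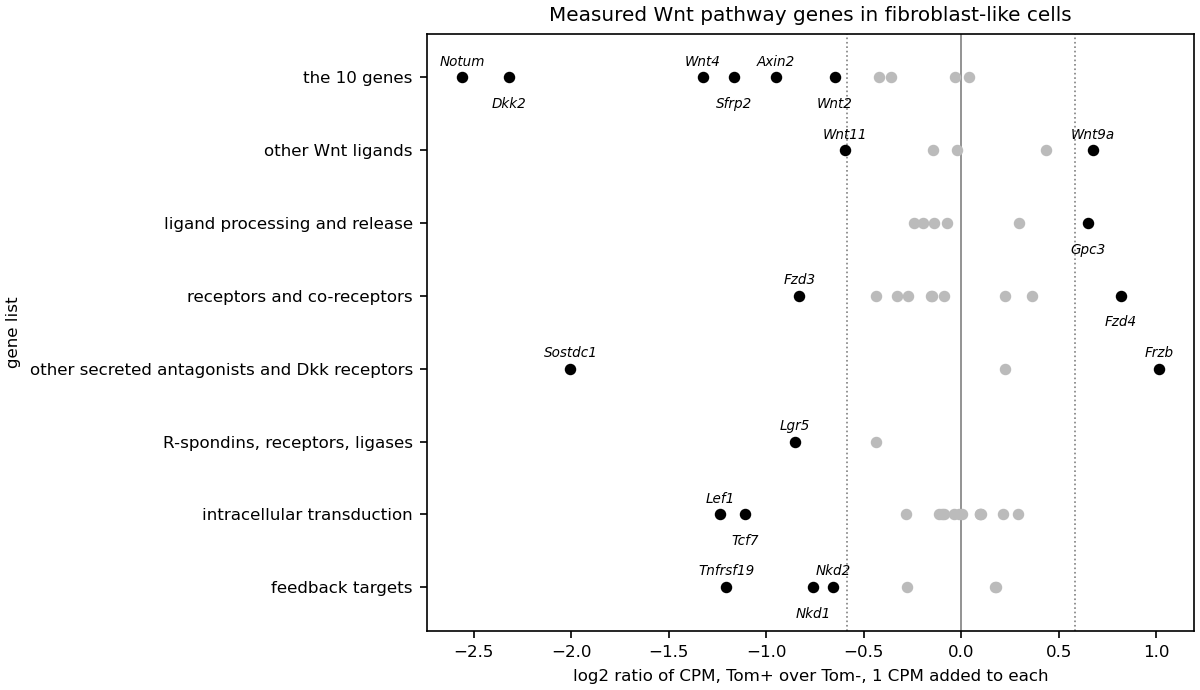
Log2 ratio of Tom+ to Tom- levels in fibroblast-like cells, 1 CPM added to each, for the 10 genes (top row) and the 46 measured genes of the 7 other lists. Each point is a gene. Black, named points are past 1.5-fold (dotted lines), grey points are not. The 10 genes reach from Notum at -2.56 to Sfrp1 at 0.04.

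Genes with a like pattern were ranked over 25 clusters of at least 30 cells, both libraries summed, by Pearson correlation of log2 levels with 1 CPM added, among 12728 genes. Clusters share libraries, depth and free RNA, so these correlations are descriptions. For Dkk2 the closest were the potassium channel gene Kcnc2 (r = 0.87), Bmp5 (0.86) and Lef1 (0.85), and for Notum Gm26903 (0.90), Cck (0.88) and Cxcl14 (0.87). Wnt2 was close to Dkk3 (0.94) and Fbln1 (0.93), and Dkk3 to Fzd1 (0.95), Fbln1 and Scarf2. Sfrp2 was closest to Gm26771 (0.97), which lies on its opposite strand and may share its reads, then to Prrx2 and Olfml3. For Sfrp1 they were Fads6 (0.92), Abca8a and C4b, and for Sfrp4 Dpt (0.93), Gm9947 and Gm46323. Axin2 went with Oat (0.93), Eml1 and Abat. Wnt4 had lower values, with Fgfr2 (0.81), Ctf1 and Tspan8, as had Wnt5a with Akr1b8 (0.88), Igdcc4 and Ccdc122. Between members, r was 0.84 for Dkk2 and Notum, 0.56 for Wnt4 and Wnt5a, and 0.02 and -0.28 for Axin2 with Wnt4 and Wnt5a.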

How the data were processed

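The deposited files held raw UMI counts, with 1 matrix of genes by barcodes per library, from 10x Genomics 3' reagents v3.1, per the labels. Cell Ranger 7.0.0 and mm10 are named in the submitters' processing notes. Other steps before deposit are not given in the sources used here.

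Cells with at least 1000 UMIs, 500 genes and under 15% mitochondrial UMIs were kept (1893 Tom+ and 10595 Tom-). Scrublet in scanpy 1.11.5 called 12 Tom+ and 709 Tom- doublets, which were left out. Clusters used 2000 variable genes, 30 components, 15 neighbours and Leiden resolution 1. Classes were named from 17 marker lists, and the fibroblast-like class was split further at a resolution of 0.5. A cluster led by Car3 and Tnc was to join a separate group if it scored best for fibroblast markers. It scored best for smooth muscle markers and was kept apart all the same.

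UMIs were summed per library and group and scaled to CPM, with exact Poisson, Clopper-Pearson or conditional binomial 95% intervals. Log2 ratios had 1 CPM added. A zero allows up to 3 counts. Depth is the UMI total of the group. The calculation was tested on simulated data. Alternatives included TMM scaling (edgeR 4.0.16), thinning to 2000 UMIs and leaving out shared barcodes.

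The members, gene lists and marker lists were chosen with earlier results of these data known. Named genes were the 10 members, the 3 highest genes of each other list, those past 1.5-fold, and the 3 genes most like each member, of which 1 is not reported here. Upstream sequences came from RefSeq and positions from a GRCm38 annotation. Prostate or seminal vesicle-like cells and most unnamed clusters are left out of the account.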

Additional observations from a re-analysis of the deposited data

Results flagged for a closer look

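Wnt4 differed in opposite directions between groups under the same Tom+ to Tom- contrast, which was not tested, since each group is 1 library. Its log2 ratio in the Cck Chodl state was 0.62, and it was -0.93 in the Cxcl12 Apoe state and -1.11 in the Pex5l Lsamp state, gaps of 1.55 and 1.72. Without 1 Tom+ and 1 Tom- cell with a shared barcode, the Cck Chodl levels were 246 CPM in Tom+ against 182 in Tom-, no longer past 1.5-fold. In lymphatic endothelial-like cells the log2 ratio was 1.45, from 11 Tom+ and 10 Tom- UMIs, against -1.33 in fibroblast-like cells, a gap of 2.78. That Tom+ level was 24.5 CPM in 89 cells and the Tom- level 8.32 CPM in 196 cells.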

How the results depend on the processing

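No paired analysis was possible because each group is 1 library. The 6 members lower in fibroblast-like cells became 4 to 7 over 18 alternatives (3 of them chosen after seeing the data), with none higher in any. Dkk2, Axin2 and Notum were past 1.5-fold lower in all 18, though Notum was too low to count as measured in 2. Wnt2 was so in 16, Sfrp2 in 17 and Wnt4 in 15. Wnt4 turned over with a stricter cell filter (log2 ratio 0.50), Leiden resolution 2 (0.42) and gated cells (0.29). Under these, 62, 59 and 97 Tom+ and 206, 198 and 309 Tom- mesothelial-like cells joined the class, with 1401 of 1599, 1394 of 1638 and 1643 of 2046 Tom+ Wnt4 UMIs. Of the other pathway genes, 9 were lower and 4 higher, beside 2.77% and 1.94% of all 8875 measured genes. Resolution 0.5 gave 1 and 1, and leaving out the Scube3 Gfra1 state, chosen after seeing the data, 2 and 1. Gated cells gave 5 lower, and resolution 2 gave 1 higher. Shares over all genes were not computed for these alternatives, except with the 3 stromal clusters counted. Within states 5 members were lower, but 2 with Tom- states at the Tom+ mix. The number of members highest in a stromal class stayed at 6 or 7. Car3 Tnc cells, which scored higher for smooth muscle markers, counted as stromal there. No share over all genes was computed, and the members were chosen with their levels known, so nothing is read from that number. Other causes were not tested. Depth limits the Tom+ low-depth state, where 3 counts are 23.3 CPM, and the 13 Tom+ Scube3 Gfra1 cells, at 17.2 CPM, more than the other fibroblast states.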

Other observations

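Dkk2 also appeared outside the stroma. In blood endothelial-like cells, 3 of 4 measured members were at least 1.5 times lower in Tom+ (Wnt2, Wnt5a and Dkk2), beside 10% of 8884 measured genes lower. These rest on 2, 9 and 12 Tom+ UMIs. Dkk2 there was 8.39 CPM in Tom+ against 27.5 in Tom-, but by cluster it was 9.32 and 10.4 CPM in the cluster led by Selp and Vwf. In the cluster led by Cd36 and Sema3g it was 4.01 CPM, from 1 UMI in 28 Tom+ cells, and 63.6 CPM (51.7 to 77.5) in 236 Tom- cells.

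An unnamed cluster led by Rorb and Osr2 held Dkk2 at 117 CPM in 54 Tom+ cells and 162 CPM in 116 Tom- cells. Wnt5a there was 614 CPM in Tom+ against 333 in Tom-, Sfrp2 847 and 665 CPM, and Axin2 43.8 CPM, from 3 UMIs, and 82.4 CPM. All 54 and 99 of those cells carried barcodes found in both libraries. These clusters were singled out after their values were seen.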
